A study of Rattus norvegicus with 12 samples.

Results

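The mitosis and G2/M genes are a set of 44 genes whose products bring a cell from the end of DNA replication through chromosome segregation and cell division. They were chosen by gene symbol. Of these, 40 had at least 1 probe set carrying that symbol alone on the array, out of 14217 genes measured in all, and those 40 are the members described here. Nek2, Ndc80 and Tpx2 had no probe set under their symbol, and the probe set of Anln also carried a second symbol, so these 4 genes have no value. The members were covered by 57 probe sets, and the one with the highest mean over all arrays stood for each gene.

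RNA was profiled in rat esophagus on 12 Affymetrix expression arrays, 3 in each of 4 groups. Per the labels' protocols, treated rats (3 to a cage) received 0.3 mg/kg of N-nitrosomethylbenzylamine (NMBA), a carcinogen for the squamous epithelium of this organ, in subcutaneous doses of 0.2 ml given on 3 occasions a week over 5 weeks, and the alternative injection was the vehicle, dimethyl sulfoxide in water. One group is the normal control, and the other 3 received NMBA and were sampled at week 6 (early stage), week 15 (middle stage) or week 29 (late stage). The labels count these weeks after NMBA treatment without saying whether from its first or last injection, and give no strain, sex or age and no week for the controls. Each sample was taken from part of the esophagus, and the labels do not say whether the late-stage tissue held tumors. Whether the 3 arrays of a group are 3 animals is not given, and p-values therefore rest on a spread between samples that may be technical.

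Values are log2 signals, so a difference of 1 is a 2-fold change. Medians over all probe sets lay between 6.41 and 6.48 in the 12 arrays. The protocol removed the submucosal and muscle layers, and epithelial markers were bright on every array, with a mean signal of 13.93 for the suprabasal keratin gene Krt13 and 13.88 for the basal keratin gene Krt15. Skeletal muscle genes were bright as well, with a mean of 14.62 for the actin gene Acta1, and the mean log2 signal of 24 measured muscle markers (of 25 listed) was 11.70 to 12.25 in controls, 12.33 to 12.64 at week 6, 10.23 to 11.68 at week 15 and 12.11 to 12.29 at week 29. The difference between the 3' and 5' GAPDH array controls, which is larger in degraded RNA, was 0.11 ± 0.04 (SD, n = 3) at week 6 and 0.17 ± 0.04 at week 29, beside 0.40 ± 0.16 in controls and 0.40 ± 0.19 at week 15. The poly-A control transcripts, bacterial RNAs that are normally added before labelling, had a mean log2 signal of 8.96 to 9.69 in controls, 7.70 to 8.41 at week 6, 8.24 to 9.32 at week 15 and 8.48 to 8.87 at week 29.

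In the esophagus, a stratified squamous epithelium, cells divide in and just above the basal layer and stop dividing as they move up and differentiate. Mitotic genes are transcribed late in the cell cycle, when the MuvB complex with the transcription factors B-Myb and FoxM1 acts at their promoters, and in resting cells the related DREAM complex silences them. Their proteins assemble the cyclin B kinase, the spindle and the kinetochores, and many are then destroyed by the anaphase-promoting complex. Expression of these genes is widely read as a measure of the dividing share of a tissue.

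The promoters of 5 members that carry this program are shown because the members moved together on the arrays. They run from 250 bases before to 50 bases after the gene start, 5′ to 3′ on the gene's strand, and come from RefSeq. Capitals mark the CCAAT box, which NF-Y binds, and 3 forms of the cell cycle genes homology region (CHR), the element that MuvB complexes bind. The first form is TTTGAA, the second form has the letters TTCGAA in its place, and the other form is TTTAAA. All were searched on both strands, and on the opposite strand the first form reads as TTCAAA, whereas the CCAAT box then reads as ATTGG and the other two forms stay the same.
Cdk1 (GRCr8, chr20:19265043-19265342, plus strand): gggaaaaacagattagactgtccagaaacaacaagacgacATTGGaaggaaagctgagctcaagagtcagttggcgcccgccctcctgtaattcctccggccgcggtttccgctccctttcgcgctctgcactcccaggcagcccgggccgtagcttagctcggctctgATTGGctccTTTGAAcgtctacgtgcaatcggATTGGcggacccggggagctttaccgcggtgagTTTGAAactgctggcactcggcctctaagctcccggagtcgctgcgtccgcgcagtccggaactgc
Ccnb1 (GRCr8, chr2:33655176-33655475, minus strand): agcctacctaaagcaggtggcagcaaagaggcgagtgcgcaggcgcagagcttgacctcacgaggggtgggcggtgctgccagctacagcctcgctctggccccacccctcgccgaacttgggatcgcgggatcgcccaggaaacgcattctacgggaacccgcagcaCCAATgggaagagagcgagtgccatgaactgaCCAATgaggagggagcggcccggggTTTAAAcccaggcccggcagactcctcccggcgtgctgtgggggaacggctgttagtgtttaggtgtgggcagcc
Ccnb2 (GRCr8, chr8:79981609-79981908, minus strand): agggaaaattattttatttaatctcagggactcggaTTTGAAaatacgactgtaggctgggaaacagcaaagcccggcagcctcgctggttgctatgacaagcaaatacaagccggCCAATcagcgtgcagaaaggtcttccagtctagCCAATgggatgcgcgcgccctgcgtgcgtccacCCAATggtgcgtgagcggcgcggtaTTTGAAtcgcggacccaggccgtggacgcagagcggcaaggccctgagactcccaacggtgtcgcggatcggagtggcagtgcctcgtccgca
Plk1 (GRCr8, chr1:186147408-186147707, plus strand): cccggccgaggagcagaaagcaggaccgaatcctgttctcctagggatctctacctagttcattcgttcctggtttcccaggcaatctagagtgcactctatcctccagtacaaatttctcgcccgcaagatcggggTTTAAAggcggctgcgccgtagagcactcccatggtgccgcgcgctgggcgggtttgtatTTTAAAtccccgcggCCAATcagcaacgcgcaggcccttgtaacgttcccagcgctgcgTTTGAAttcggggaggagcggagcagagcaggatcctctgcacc
Cdc20 (GRCr8, chr5:137255750-137256049, minus strand): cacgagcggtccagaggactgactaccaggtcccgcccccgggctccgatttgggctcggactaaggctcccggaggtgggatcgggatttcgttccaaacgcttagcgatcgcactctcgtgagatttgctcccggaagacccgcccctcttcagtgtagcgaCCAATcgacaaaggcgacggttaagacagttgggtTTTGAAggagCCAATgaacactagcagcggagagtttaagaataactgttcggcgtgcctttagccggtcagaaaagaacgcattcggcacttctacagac

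In the cyclin B2 promoter, 3 CCAAT boxes began at positions -134, -101 and -68, counted in bases from the gene start, and were followed by a TTTGAA at -43. The cyclin B1 promoter held 2 CCAAT boxes and a TTTAAA, Cdk1 held 3 CCAAT boxes and 2 TTTGAA, Cdc20 held 2 CCAAT boxes around 1 TTTGAA, and Plk1 held 1 CCAAT box, 2 TTTAAA and 1 TTTGAA. Promoters were at hand for 34 of the 40 members. At least 1 of the 3 CHR forms occurred in 32 of these 34 (94.1%), against 29.4% of the 33469 promoters of the same length in the table. TTTGAA was found in 24 (70.6% against 18.3%), TTTAAA in 12 (35.3% against 13.6%) and TTCGAA in 2 (5.88% against 1.69%). A CCAAT box occurred in 27 (79.4% against 37.5%), and at least 2 of them in 21 (61.8% against 11.2%). Melk and Cdca3 were the members without any of the 3 CHR forms in this window, and Cdca3 held 3 CCAAT boxes. In Cdca8 and Mki67 a TTTGAA and an adjoining ATTGG share 1 base, and no other matches in the members overlap. Each member was counted with 1 promoter, whereas the percentages over the table were not limited to 1 promoter per gene or to measured genes. A match of letters is a description of the sequence and does not show that a factor binds there.

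The members shared the order of most group means and the arrays at either end. Their mean log2 signal, here called the member score, was 8.18, 8.10 and 8.05 in controls, 7.40, 7.43 and 7.51 at week 6, 8.17, 8.10 and 8.73 at week 15 and 8.02, 7.68 and 7.06 at week 29. Controls and week 6 were tight and apart from each other, whereas week 15 and week 29 each held samples that differed from one another by more than the gap between some groups. The group means ran week 6, week 29, control, week 15 from low to high in 34 of 40 members, and week 29, week 6, control, week 15 in the other 6. Replicate 3 of week 15 was the highest of all 12 arrays in 40 of 40 members (24.8% of all genes had their highest value there), and replicate 3 of week 29 was the lowest in 34 of 40 (19.0% of all genes). In a tissue sample, fewer dividing cells and less RNA per dividing cell cannot be told apart.

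**Figure D1:**
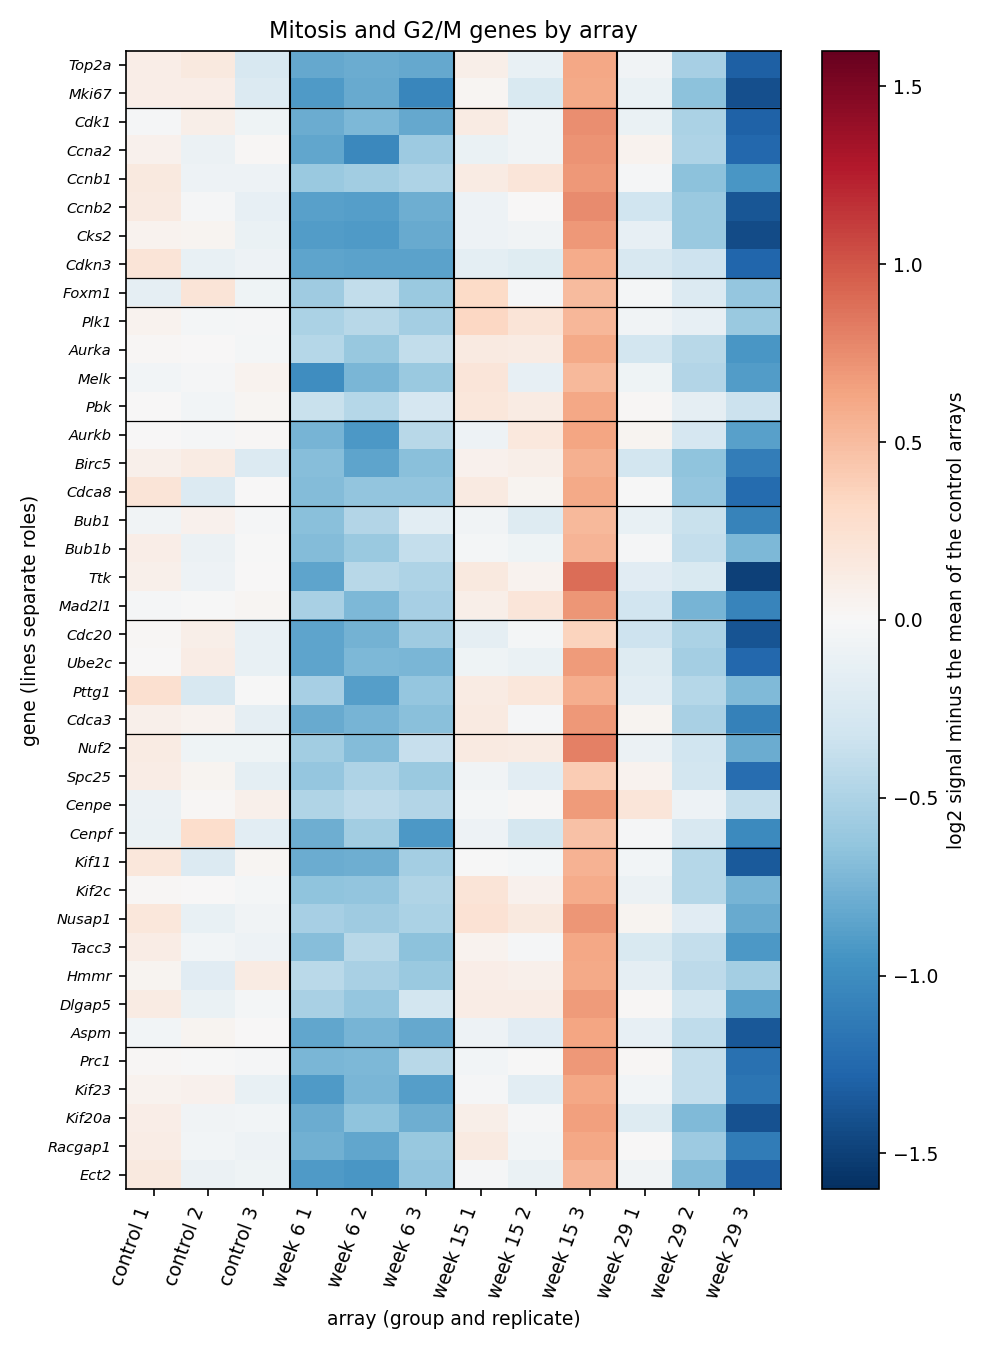
Heat map of the 40 members (rows, grouped by role) in the 12 arrays (columns, 3 per group); color is the log2 signal minus the mean of the 3 control arrays, on a linear scale from -1.6 to 1.6. Week 6 is blue throughout, replicate 3 of week 15 is red in all 40 members, and at week 29 replicate 1 is pale while replicate 3 is dark blue.

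The first comparison asked how the early stage differed from controls. At week 6, 5 of 40 members fell, by 0.50 to 0.77 on the log2 scale, and none rose (limma, adjusted p under 0.05 over all probe sets; 3.76% of all genes were called lower and 5.07% higher). These were Pttg1, Melk, Birc5, Plk1 and Kif2c. All 40 members had a negative difference, from -0.36 for Pbk to -0.92 for Mki67, with a median of -0.69 (1.61-fold lower), whereas the median over all genes was -0.03. In 40 of 40 members each week 6 array lay below each control array, and 22.3% of all genes showed that separation, while 20.4% showed the opposite one. At an unadjusted p under 0.05, 38 members were lower (2360 of 14217 genes), and the other 2 were the spindle checkpoint kinase genes Bub1 and Ttk.

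The number of members called depended on which arrays set the error. In a fit of the 6 control and week 6 arrays alone, 39 of 40 members were lower (8.41% of all genes), with the same differences and without the wide spread of weeks 15 and 29 in the error. The count was 23 without week 15 replicate 3 (5.61% of all genes), 23 without week 29 replicate 1 (5.72%), 28 without week 29 replicate 3 (4.24%) and 9 without week 15 replicate 2 (5.44%). It was 0 without week 29 replicate 2 (1.98%), 1 without control replicate 2 (3.07%), and 0 without control replicate 1 or 3 or any 1 week 6 array, where between 0.00703% and 0.0492% of all genes were called lower. With the muscle score as a covariate the median was -0.47 and with the GAPDH difference it was -0.72, and 0 members were called in either fit. Those fits called 0.00703% and 0.0422% of all genes lower, so a count of 0 is at the background. Beside this, the muscle score of each week 6 array lay above that of each control. In the fit of all groups, 4 of 15 measured basal keratinocyte markers (of 16 listed) were called lower. So were 2 of 18 suprabasal squamous markers (of 20 listed), against 3.76% of all genes. The part of tissue composition in the difference was not tested beyond these fits.

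At week 15, the middle stage, no member was called against controls by limma (background: 1.54% of all genes called higher and 8.38% lower). All 40 differences were positive, from 0.03 for Cenpf to 0.37 for Ttk, with a median of 0.23. Only Plk1 and Pbk were higher at an unadjusted p under 0.05. Of all genes, 1432 of 14217 were higher at that threshold, so 2 of 40 members is not above the background. All 3 week 15 arrays lay above all 3 controls for 6 members, Plk1, Aurka, Pbk, Mad2l1, Nuf2 and Kif2c (15.0% of the members and 11.4% of all genes). Replicate 3 stood apart from the other two. It lay above every control in 40 of 40 members, by a median of 0.62 over the control mean, whereas replicates 1 and 2 were at 0.08 and -0.02 and above every control in 13 and 8 members.

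Week 15 replicate 3 also had the lowest muscle score of the 12 arrays, 10.23, against 11.13 and 11.68 in replicates 1 and 2. Its basal keratinocyte score, the mean of the 15 measured markers, was 11.22, beside 11.20 and 10.91 in the other two and 10.80 to 11.01 in controls. With the muscle score as a covariate the median member difference between week 15 and control turned from 0.23 to -0.24, and without the third arrays of weeks 15 and 29 it was 0.03. No member was called in either of these fits. Over all genes the muscle fit called 0% higher and 0% lower, and the other fit called 0.267% higher and 2.05% lower. A count of 0 is therefore at or near the background.

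At week 29, the late stage, 4 of 40 members fell against controls, by 0.56 to 0.74 on the log2 scale, and none rose. Of all genes, 10.8% were called lower and 8.44% higher, so the count of 4 is at the background. The members called were Mad2l1, Birc5, Aurka and Cdc20. All 40 differences were negative, from -0.09 for Cenpe to -0.77 for Kif20a, with a median of -0.53 (1.45-fold lower) against 0.01 over all genes. In 18 members all 3 week 29 arrays lay below all 3 controls (45.0%, against 20.9% of all genes). At an unadjusted p under 0.05, 25 members were lower (2956 of 14217 genes).

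The late-stage count rested on single arrays in both directions. It was 26 without week 29 replicate 1 (13.7% of all genes called lower) and 10 without week 15 replicate 3 (12.7%). It was 0 without week 29 replicate 2 (2.37%) or 3 (0.921%) and without control replicate 1 (1.90%) or 3 (2.97%), where calls over all genes were fewer too, 1 without control replicate 2 (10.6%) or week 6 replicate 1 (8.07%), and 2 without week 6 replicate 2 (8.41%). Without replicate 3 of weeks 15 and 29 the median was -0.27 with 0 members called (2.36% of all genes), and with the GAPDH difference as a covariate it was -0.56 with 0 members called (0.598%).

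With all 3 arrays, the week 29 samples had the widest spread of the 4 groups, and the difference in spread was not tested. The member score fell short of the control range by little in replicate 1 (8.02, against a lowest control of 8.05) and by far more in replicate 3 (7.06), a distance of 0.95 between the highest and the lowest week 29 sample, whereas the 3 controls spanned 0.12 and the 3 week 6 samples 0.11. The SD of the score was 0.48 at week 29, 0.35 at week 15, 0.06 in controls and 0.05 at week 6. Without week 29 replicate 3 it was 0.24, below that of week 15 with all its arrays. The week 15 SD in turn rests on its own replicate 3 (8.73, beside 8.17 and 8.10). The rank of these 2 groups therefore depends on which arrays are left out. In 40 of 40 members replicate 1 was the highest, replicate 2 the middle and replicate 3 the lowest of the 3 week 29 arrays, and 23.7% of all genes had that order. Replicate 1 exceeded replicate 3 by a median of 1.01 on the log2 scale, replicate 1 exceeded replicate 2 by 0.34 and replicate 2 exceeded replicate 3 by 0.61. Over all genes the median of replicate 1 minus replicate 3 was -0.02. The order is that of the brightest probe set of each member. At week 29 a dimmer Ccnb1 probe set kept it (7.95, 7.48 and 6.73), and a dimmer Kif2c probe set did not (5.65, 5.16 and 5.49). Of 17 such dimmer probe sets, those of Foxm1 and Tacc3, the dimmest of Mad2l1 and most of Cdc20 also broke it. The others kept it.

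Relative to the controls, week 29 replicate 1 lay within the control range in 20 members, below it in 18 and above it in 2, with a median of -0.07 from the control mean. Replicate 2 lay below every control in 39 members (median -0.45) and replicate 3 in all 40 (median -1.10). Week 29 had the largest SD of the 4 groups in 36 members and week 15 in the other 4. Over all genes week 29 had the largest SD in 25.3% and week 15 in 43.2%. The median SD of the members was 0.53 at week 29, 0.35 at week 15, 0.11 in controls and 0.10 at week 6, and over all genes it was 0.13, 0.16, 0.12 and 0.10.

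**Figure D2:**
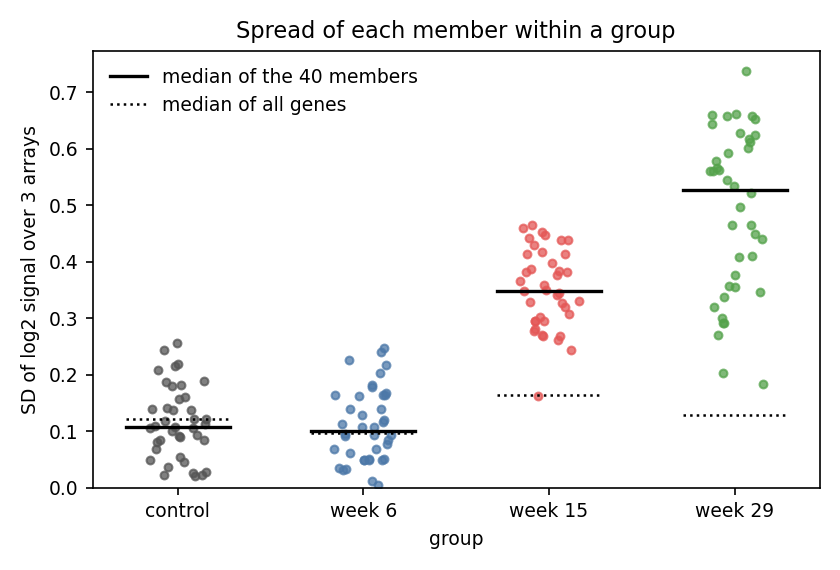
SD of the log2 signal over the 3 arrays of a group (vertical axis) for each of the 40 members (points), by group; solid lines are member medians and dotted lines the medians of all genes. Member medians of 0.11 and 0.10 in controls and week 6 lie near those of all genes, and those of 0.35 at week 15 and 0.53 at week 29 lie above them.

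The muscle scores of the 3 week 29 samples were close together, at 12.11, 12.29 and 12.24. The basal keratinocyte score differed in the same order as the members, at 10.72, 10.09 and 9.95, and the suprabasal squamous score was 8.20, 7.96 and 7.81. The lymphocyte score (12 of 15 markers measured) was 5.55, 6.31 and 5.55 and did not share the order. The GAPDH difference was 0.13, 0.21 and 0.17. Against controls, 7 of 15 basal and 10 of 18 suprabasal markers were called lower at week 29, and 0 of 24 muscle markers in either direction by limma (0 lower and 3 higher at an unadjusted p under 0.05). Endothelial markers were called lower for 7 of 9 at week 29 and for 3 of 9 at weeks 6 and 15. Fibroblast markers were called lower for 8 of 10 at week 15 and 2 of 10 at week 29. Of 13 measured myeloid markers, 2 were called higher at week 15 (1.54% of all genes) and 1 lower at week 29. Over all genes 3.76%, 8.38% and 10.8% were called lower at weeks 6, 15 and 29. No lymphocyte marker was called by limma in any comparison with controls (1 was higher at an unadjusted p under 0.05 at week 15, and 1 at week 29). At that threshold 1432 of 14217 genes were higher at week 15, and 2956 were lower and 2637 higher at week 29. The part of epithelial content in the spread of the members was not tested.

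**Figure D3:**
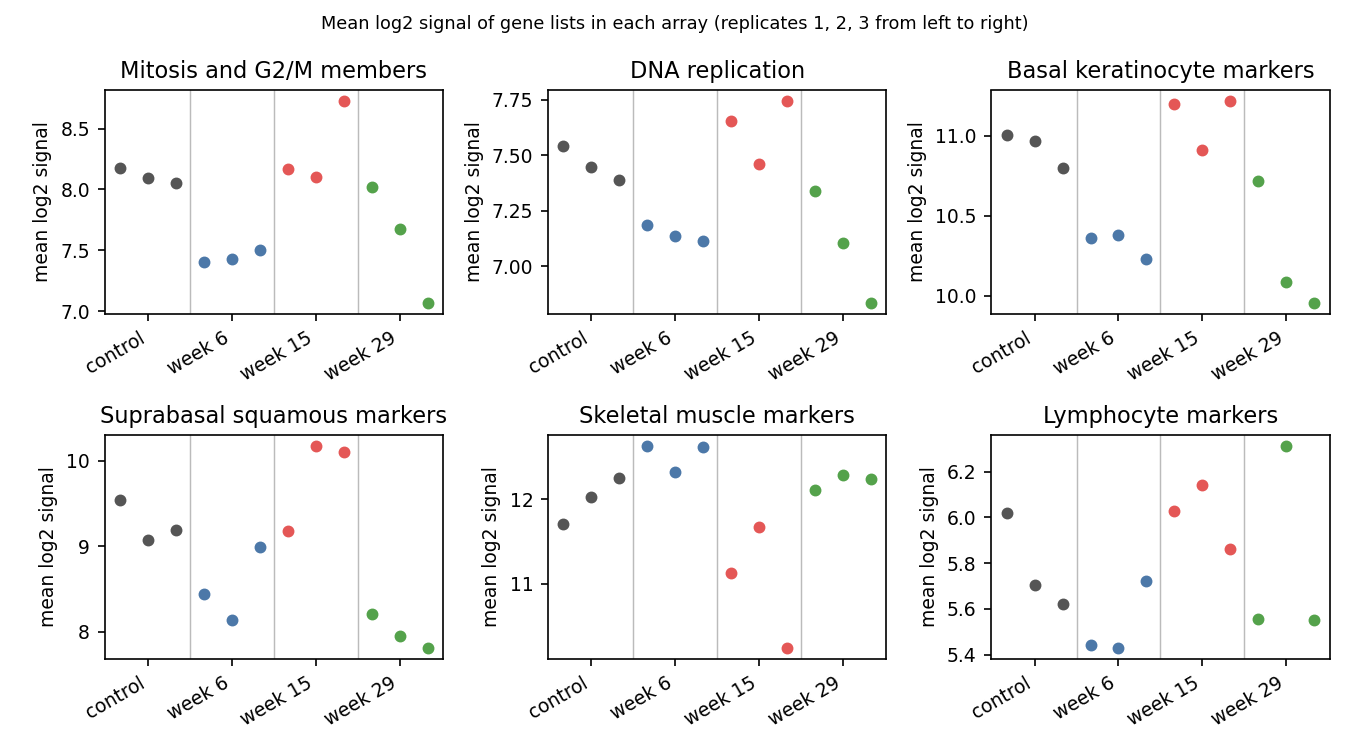
Mean log2 signal of the members and of 5 other gene lists (vertical axes, each with its own scale) in the 12 arrays, colored by group, with replicates 1, 2 and 3 from left to right. The 3 week 29 arrays span 7.06 to 8.02 for the members, 6.83 to 7.34 for DNA replication genes and 9.95 to 10.72 for basal keratinocyte markers, and 12.11 to 12.29 for skeletal muscle markers.

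The 2 members that serve most often as proliferation markers showed the pattern in full. Mki67 encodes the Ki-67 antigen, which coats mitotic chromosomes. Its signal was 9.68, 9.68 and 9.35 in the controls, 8.66, 8.77 and 8.53 at week 6, 9.60, 9.33 and 10.17 at week 15 and 9.46, 8.92 and 8.16 at week 29. The week 6 arrays lay 0.92 ± 0.28 (SE, n = 3 per group) below control on the log2 scale, with no overlap, and at an adjusted p of 0.0614 (limma) Mki67 did not pass the threshold. Top2a encodes the DNA topoisomerase that untangles sister chromosomes, and its signal was 9.96, 10.01 and 9.61 in the controls, 9.04, 9.07 and 9.05 at week 6, 9.95, 9.75 and 10.49 at week 15 and 9.81, 9.33 and 8.56 at week 29. The 3 week 6 values lay within 0.03 of each other, the week 29 values spread over 1.24, and neither difference from control passed (adjusted p = 0.0753 and 0.12).

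The CDK and cyclin genes make up the engine of mitotic entry, and all 6 were measured. Cdk1, the kinase that drives entry into mitosis, had a signal of 9.18, 9.29 and 9.13 in the controls, 8.40, 8.48 and 8.38 at week 6, 9.33, 9.15 and 9.94 at week 15 and 9.09, 8.69 and 7.91 at week 29. Its partner cyclin B1, encoded by Ccnb1, was at 8.81, 8.57 and 8.57 in the controls, 8.06, 8.09 and 8.16 at week 6, 8.78, 8.85 and 9.35 at week 15 and 8.63, 7.998 and 7.72 at week 29. For Cdk1 each week 29 array lay below each control, whereas for Ccnb1 replicate 1 of week 29, at 8.63, lay inside the control range. Ccnb2, which encodes another B-type cyclin, gave 8.79, 8.63 and 8.52 in the controls, 7.79, 7.77 and 7.86 at week 6, 8.57, 8.65 and 9.40 at week 15 and 8.33, 8.06 and 7.28 at week 29. Cyclin A2, which acts from S phase into early mitosis, is encoded by Ccna2, and the values were 7.44, 7.27 and 7.39 in the controls, 6.54, 6.34 and 6.79 at week 6, 7.26, 7.31 and 8.09 at week 15 and 7.42, 6.87 and 6.11 at week 29. At week 29 Ccnb2 lay below every control, and Ccna2 did not, since its replicate 1 was within their range.

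Cks2 encodes a small subunit that binds CDKs, and its signal was 9.43, 9.42 and 9.26 in the controls, 8.48, 8.46 and 8.56 at week 6, 9.29, 9.31 and 10.06 at week 15 and 9.23, 8.77 and 7.93 at week 29. Its SD of 0.66 at week 29 was among the 5 largest, with those of Ttk (0.74), Kif11 (0.66), Spc25 (0.66) and Ccna2 (0.66). None of the 6 CDK and cyclin genes passed against controls at either week 6 or week 29, with adjusted p from 0.0593 to 0.109 and from 0.059 to 0.193. Their median differences were -0.83 and -0.63. The sixth gene, Cdkn3, a phosphatase that acts on CDKs, had the smallest SD of all members at week 6, 0.01, and an SD of 0.57 at week 29.

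Foxm1, the transcription factor that drives many of the other members, was nearer to control than the list medians at weeks 6 and 29 but not at week 15, where it differed by 0.26 against a median of 0.23. Its signal was 6.96, 7.31 and 7.04 in the controls, 6.53, 6.71 and 6.51 at week 6, 7.41, 7.08 and 7.62 at week 15 and 7.07, 6.89 and 6.49 at week 29, with a difference of -0.52 ± 0.17 at week 6 (adjusted p = 0.0733) and -0.29 ± 0.17 at week 29 (adjusted p = 0.252). Among the mitotic kinases, Plk1, the polo-like kinase of mitotic entry and spindle assembly, read 8.64, 8.55 and 8.57 in the controls, 8.09, 8.14 and 8.04 at week 6, 8.92, 8.80 and 9.12 at week 15 and 8.53, 8.46 and 7.99 at week 29. Plk1 fell at week 6 by 0.50 ± 0.13 (adjusted p = 0.043), with groups that did not overlap, and its week 29 difference of -0.26 did not pass (adjusted p = 0.197). Aurka encodes Aurora A, the kinase of centrosomes and spindle poles, and was at 7.11, 7.10 and 7.06 in the controls, 6.63, 6.48 and 6.69 at week 6, 7.24, 7.23 and 7.69 at week 15 and 6.80, 6.65 and 6.15 at week 29. It fell at week 29 by 0.56 ± 0.16 (adjusted p = 0.0403), below every control, and its difference at week 6 was -0.49 (adjusted p = 0.0818).

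Melk, a kinase gene expressed in dividing cells, had values of 7.64, 7.67 and 7.75 in the controls, 6.70, 6.96 and 7.10 at week 6, 7.88, 7.56 and 8.21 at week 15 and 7.62, 7.22 and 6.80 at week 29, and it fell at week 6 by 0.77 ± 0.20 (adjusted p = 0.0402). Pbk, which encodes a mitotic kinase, had the smallest SD of all members at week 29, 0.18, at 7.17, 7.11 and 7.18 in the controls, 6.80, 6.70 and 6.89 at week 6, 7.34, 7.29 and 7.78 at week 15 and 7.17, 7.01 and 6.81 at week 29. At week 29 replicate 1 lay within the control range for Pbk and just below it for Melk.

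Of the chromosomal passenger complex, which corrects faulty spindle attachments and guides cytokinesis, Birc5 (survivin) was called in both comparisons. Its signal was 8.42, 8.46 and 8.12 in the controls, 7.65, 7.49 and 7.67 at week 6, 8.40, 8.43 and 8.90 at week 15 and 8.05, 7.69 and 7.23 at week 29. It fell by 0.73 ± 0.19 at week 6 (adjusted p = 0.0415) and by 0.68 ± 0.19 at week 29 (adjusted p = 0.0361), 2 comparisons that share their control arrays. All week 6 and week 29 values lay below the lowest control of 8.12. The kinase subunit gene Aurkb and the subunit gene Cdca8 were at -0.70 and -0.65 at week 6 (adjusted p = 0.0702 and 0.118), and at -0.37 and -0.62 at week 29 (adjusted p = 0.27 and 0.106).

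The spindle checkpoint delays anaphase until each chromosome is attached. Mad2l1, which encodes its inhibitor protein Mad2, read 6.69, 6.70 and 6.73 in the controls, 6.18, 5.99 and 6.18 at week 6, 6.80, 6.90 and 7.41 at week 15 and 6.41, 5.97 and 5.66 at week 29, and it fell at week 29 by 0.70 ± 0.18 (adjusted p = 0.0283), the lowest adjusted p of any member against control. Ttk, the checkpoint kinase also called Mps1, was the most variable member at week 29, at 6.72, 6.55 and 6.64 in the controls, 5.79, 6.19 and 6.14 at week 6, 6.80, 6.69 and 7.52 at week 15 and 6.46, 6.39 and 5.15 at week 29. There replicate 3 stood far below replicates 1 and 2, and the difference of -0.64 ± 0.30 from control did not pass (adjusted p = 0.168). Bub1 and Bub1b were at -0.44 and -0.56 at week 6 and at -0.52 and -0.37 at week 29, and neither passed.

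Among genes of mitotic exit, Cdc20, the activator of the anaphase-promoting complex, read 9.22, 9.29 and 9.08 in the controls, 8.35, 8.44 and 8.63 at week 6, 9.06, 9.16 and 9.56 at week 15 and 8.86, 8.69 and 7.82 at week 29. It fell at week 29 by 0.74 ± 0.22 (adjusted p = 0.0446), and its week 6 difference of -0.72 did not pass (adjusted p = 0.0656). These values are from its brightest probe set. Of its 5 probe sets, 1 was called lower at week 29 and 3 were negative. Pttg1, securin, holds back the protease that separates sister chromatids, and its signal was 8.75, 8.24 and 8.48 in the controls, 7.95, 7.61 and 7.87 at week 6, 8.63, 8.67 and 9.07 at week 15 and 8.32, 8.04 and 7.78 at week 29. It fell at week 6 by 0.68 ± 0.17 (adjusted p = 0.038), the lowest adjusted p of any member at that week, and was at -0.44 at week 29 (adjusted p = 0.0986). Its SD at week 29, 0.27, was among the 3 smallest. Ube2c, the ubiquitin-conjugating enzyme of the same complex, and Cdca3 were at -0.76 and -0.74 at week 6 and at -0.67 and -0.52 at week 29 without passing.

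The kinetochore genes, whose products link chromosomes to the spindle, held no called member against controls. Spc25, a subunit of the Ndc80 complex, read 8.02, 7.94 and 7.75 in the controls, 7.29, 7.41 and 7.31 at week 6, 7.85, 7.74 and 8.31 at week 15 and 7.96, 7.61 and 6.69 at week 29. At week 29 its replicate 1 lay within the control range and its replicate 3 lay far below them. Cenpe, a kinetochore motor, had the smallest difference of any member at week 29, -0.09, and replicate 1 of that week was above every control.

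Among spindle genes, Kif2c, a kinesin that takes microtubules apart, fell at week 6 by 0.59 ± 0.16 (adjusted p = 0.0458), from values of 7.42, 7.41 and 7.37 in the controls, 6.75, 6.76 and 6.92 at week 6, 7.60, 7.46 and 7.997 at week 15 and 7.30, 6.94 and 6.66 at week 29. Kif11, the kinesin that pushes spindle poles apart, was at 7.69, 7.28 and 7.54 in the controls, 6.71, 6.72 and 6.96 at week 6, 7.49, 7.47 and 8.05 at week 15 and 7.46, 7.04 and 6.16 at week 29, and neither of its differences passed (adjusted p = 0.116 and 0.133). Hmmr, a spindle protein and hyaluronan receptor, varied little at week 29 (SD 0.20), at 6.53, 6.30 and 6.62 in the controls, 6.05, 5.97 and 5.89 at week 6, 6.59, 6.56 and 7.09 at week 15 and 6.34, 6.06 and 5.94 at week 29. The other spindle members, Nusap1, Tacc3, Dlgap5 and Aspm, lay between -0.80 and -0.48 at week 6 and between -0.63 and -0.32 at week 29, and none passed. The 5 cytokinesis genes, Prc1, Kif23, Kif20a, Racgap1 and Ect2, which build the central spindle and the contractile ring, lay between -0.84 and -0.63 at week 6 and between -0.77 and -0.52 at week 29. Kif20a came nearest to the threshold, at -0.77 at week 29 (adjusted p = 0.0508).

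**Figure D4:**
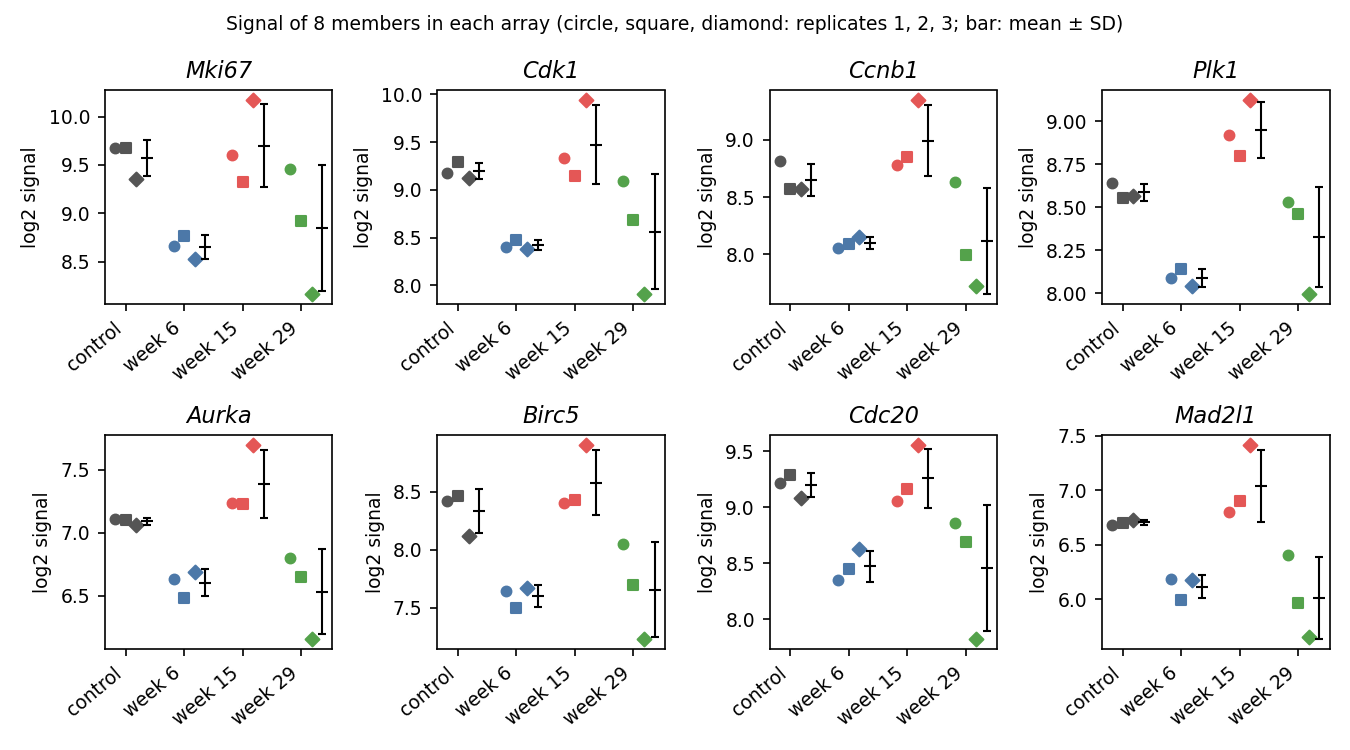
Log2 signal (vertical axes, each with its own scale that does not start at 0) of 8 members in each of the 12 arrays; circles, squares and diamonds are replicates 1, 2 and 3, and the bar is the mean ± SD of the group. Mki67 lies between 8.53 and 8.77 at week 6 and between 8.16 and 9.46 at week 29, a wider span than in controls (9.35 to 9.68).

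Members were also compared by brightness. The 13 dimmest members (mean log2 signal 6.14 to 7.27) had a median difference of -0.56 at week 6 and a median SD of 0.35 at week 29, and the 13 brightest (8.46 to 9.55) had -0.76 and 0.57. Against control the dimmest and brightest members had medians of 0.26 and 0.18 at week 15 and of -0.52 and -0.62 at week 29. A further 17 probe sets belonged to 13 of the members. At week 6, 16 of these 17 were negative (median -0.34) and 1 of Top2a was called lower. Kif2c had 1 of 2 probe sets called lower at week 6, with 2 negative. For Mad2l1 at week 29, 1 of 3 was called lower and 3 were negative. At week 29, 13 of 17 were negative (median -0.16), and 1 of Ccnb1 was called lower although the brighter Ccnb1 probe set was not (-0.86, adjusted p = 0.0497, against -0.53, adjusted p = 0.0923).

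In the fit of all groups, the most members were called between week 15 and the other NMBA stages. Separation without overlap was most frequent between week 6 and control, in 40 of 40 members. From week 6 to week 15, 38 of 40 members rose and none fell (22.7% of all genes were called higher), by a median of 0.92 on the log2 scale, and in 39 members each week 15 array lay above each week 6 array (30.1% of all genes). Plk1 rose by 0.86 ± 0.13 (adjusted p = 0.000464), Pttg1 by 0.98 ± 0.17 (adjusted p = 0.00107), Kif2c by 0.87 ± 0.16 and Hmmr by 0.77 ± 0.15. The largest difference was that of Ccnb2, 1.07 (2.09-fold). Spc25 and Bub1 did not pass, at 0.63 and 0.52. With the other 2 groups left out, 39 members were called (19.4% of all genes), and without week 15 replicate 3 it was 29 (17.9%).

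From week 15 to week 29, 33 of 40 members fell and none rose (22.4% of all genes were called lower), by a median of 0.75 on the log2 scale, and in 24 members the groups did not overlap (26.7% of all genes). Mad2l1 fell by 1.03 ± 0.18 (adjusted p = 0.000956), Aurka by 0.85 ± 0.16 (adjusted p = 0.00155), Birc5 by 0.92 ± 0.19 and Plk1 by 0.62 ± 0.13. Ccna2, Kif23, Aurkb, Bub1, Spc25, Cenpf and Cenpe did not pass. With the other 2 groups left out, 14 members were called (18.1% of all genes), and in the fit of all groups it was 12 without week 15 replicate 3 (17.1%), 13 without week 29 replicate 3 (15.6%) and 7 without both (11.1%).

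Muscle content moved with both of these differences. The muscle score of each week 15 array lay below that of each week 6 and week 29 array, and with it as a covariate no member was called in either comparison by limma, at medians of 0.23 and -0.23. That fit called 0% of all genes higher at week 15 and 1.34% lower at week 29, so a count of 0 is near the background. With the GAPDH difference as a covariate 10 members were called in each (6.42% of all genes higher and 12.2% lower), at medians of 0.92 and -0.79. Basal keratinocyte markers were called higher for 13 of 15 at week 15 against week 6 and lower for 13 of 15 at week 29 against week 15, with 1 of 15 the other way in each. In the same fit, without covariates, 22.7% of all genes were called higher in the first comparison and 22.4% lower in the second.

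Between week 29 and week 6 no difference was detected at this number of arrays. No member was called by limma and none passed an unadjusted p under 0.05, with differences from -0.11 for Mad2l1 to 0.37 for Cenpe. No gene of the 14217 was called either, while 362 were lower and 804 higher at an unadjusted p under 0.05. Each week 29 array of Cenpe, and of no other member, lay above each week 6 array (9.33% of all genes), and no member lay below in that way (6.42%).

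Further mitotic genes outside the member list were examined beside it. Of 55 measured (68 listed), 6 fell at week 6 (3.76% of all genes), with a list median of -0.50. Among them were the cyclin gene Ccnf (-0.46), Kif18b (-0.80), Cdca2 (-0.60) and the cohesin guardian Sgo1 (-0.69). At week 29, 6 of 55 fell and 1 rose (median -0.39). Of all genes, 10.8% were called lower and 8.44% higher there, so these counts are not above the background. Cenpn, Cdca2, the condensin gene Smc2 and the centriole kinase Plk4 fell by 0.61, 0.55, 0.91 and 0.93. At week 15 none passed against controls by limma, with 0 also at an unadjusted p under 0.05. Of all 14217 genes, 2495 were lower and 1432 higher at that threshold. From week 6 to week 15, 42 rose and 1 fell (22.7% and 21.2% of all genes). From week 15 to week 29, 36 fell (22.4%). Replicate 3 of week 15 was the highest array in 46 of these 55 genes and replicate 3 of week 29 the lowest in 34.

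DNA replication genes, which act earlier in the cycle, were measured beside the members. Of 39 measured (43 listed), 5 fell at week 6 (3.76% of all genes), with a list median of -0.33. They included the helicase gene Cdc45 (-0.58), the replication inhibitor geminin, Gmnn (-0.59), Tyms (-0.53) and Mcm10 (-0.43). At week 29, 13 fell (10.8% of all genes), with a list median of -0.37. These included Gmnn (-0.74) and the chromatin assembly genes Chaf1a (-0.73) and Chaf1b (-0.41). The difference between this list and the members was not tested. The DNA replication score was 7.34, 7.11 and 6.83 in the week 29 samples, a span of 0.51 against 0.95 for the members. At week 15, replicate 1 was the highest of the 12 arrays in 14 replication genes and replicate 3 in 21, whereas replicate 3 was the highest in every member.

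The regulators of the program were measured in 20 of 22 cases. B-Myb, encoded by Mybl2, fell at week 6 by 0.59 and E2f8, a repressor of the E2F family, by 0.62. These 2 of 20 were the only calls at that week (3.76% of all genes were called lower and 5.07% higher). At week 29 the pocket protein gene Rbl1 (p107) fell by 0.91, E2f5 by 0.69 and E2f7 by 0.71. Tfdp2, an E2F partner, rose by 0.60 at that week. Of all genes, 10.8% were called lower and 8.44% higher there, so 3 lower and 1 higher of 20 are near the background. Rb1 fell at week 15 against controls by 0.40, the only call of the 20 there (8.38% of all genes were called lower). Subunits and partners of the anaphase-promoting complex, which destroys several of the members' proteins, had medians near 0. Of 17 measured, none passed against controls at week 6, 15 or 29 by limma, and the list medians were 0.01, 0.03 and 0.04. At an unadjusted p under 0.05 it was 5, 1 and 1. Of all 14217 genes, 2360 were lower and 2122 higher at that threshold at week 6. Those counts were 2495 and 1432 at week 15 and 2956 and 2637 at week 29. Between weeks 6 and 15, 2 of 17 were called higher and 4 lower (22.7% and 21.2% of all genes). Between weeks 15 and 29, 1 was called lower and 2 higher (22.4% and 21.1%).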

How the data were processed

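Rat esophagus was profiled on 12 Affymetrix arrays, 3 each for controls and NMBA at weeks 6, 15 and 29, grouped by the stage label. Per the submitters' processing notes, the authors used Affymetrix Expression Console, and the deposited values are log2 signals; the summarization method and version are not given in the sources at hand, and neither scanner files nor detection calls were used, so log2 is read from the values (2.49 to 14.71) and low signals have no marked floor. The 57 array controls among the 31099 probe sets were dropped, which left 31042 for testing. Platform annotation paired 20826 with 1 symbol, 436 with several and left 9780 unlisted; a gene (14217 in all) was represented by its brightest single-symbol probe set. Limma 3.58.1 (R 4.3.3) fitted all 4 groups without covariates (8 residual degrees of freedom), with Benjamini-Hochberg adjustment over all probe sets, and genes at adjusted p under 0.05 were called. The fit was checked on simulated data. No pair of arrays was a duplicate (7 to 47 identical values per pair).

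The 44 members, the related lists and the marker lists were chosen with earlier results of these data known. Members were named with values by rule: those called in any comparison with controls (up to 12), the 5 with the largest and the 3 with the smallest SD at week 29, and always 10 well-known genes (Mki67, Top2a, Cdk1, Ccnb1, Ccnb2, Plk1, Aurka, Birc5, Cdc20 and Foxm1); of each related list, up to 4 called genes by lowest p. Members named with values outside it were chosen after their values were seen. Promoters are from RefSeq on GRCr8. Alternatives covered scaling, filtering, probe sets, eBayes settings, the 2 groups alone, the week 15 arrays left out, a replicate block, covariates and each array left out.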

Additional observations from a re-analysis of the deposited data

Results flagged for a closer look

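The NMBA stages differed from each other in the test between weeks, and these results are given for a closer look on that ground; groups of 3 arrays were too small to test for outlying samples. Against week 6, 38 members were called higher at week 15, and the 4 with the lowest adjusted p were Plk1 (0.86 on the log2 scale), Pttg1 (0.98), Kif2c (0.87) and Hmmr (0.77). Against week 15, 33 members were called lower at week 29, and the 4 with the lowest adjusted p were Mad2l1 (-1.03), Aurka (-0.85), Birc5 (-0.92) and Plk1 (-0.62). The muscle score differed between the same groups, and with it as a covariate no member was called by limma in either comparison, while over all genes 0% were called higher at week 15 and 1.34% lower at week 29, so those counts are near the background; its part in the differences was not tested beyond that fit.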

How the results depend on the processing

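Each count of members is followed by the percentage of all genes called in the same direction under the same setting. For week 6 against control (5 called lower, 3.76%), the count was 3 with array medians subtracted (3.04%), 8 after quantile normalization (4.40%), 9 with the mean of a gene's probe sets (4.35%), 39 with the 2 groups alone (8.41%), 19 without the week 15 arrays (6.38%), 1 with the replicate number as a block (3.65%), 0 with the muscle score as a covariate (0.00703%), 0 with the GAPDH difference (0.0422%) and 39 without replicate 3 of weeks 15 and 29 together (6.46%), an alternative chosen after seeing the data; leaving out 1 array gave 0 to 28 (0.00703% to 5.72%). For week 15 against control (0 called higher, 1.54%), quantile normalization gave 1 (2.52%) and leaving out 1 array gave 0 to 1 (0.352% to 2.20%). For week 29 against control (4 called lower, 10.8%), the count was 1 with the 2 groups alone (8.79%), 7 without the week 15 arrays (13.3%), 2 with the replicate block (10.5%), 2 with the muscle score (8.66%), 0 with the GAPDH difference (0.598%), 0 without replicate 3 of weeks 15 and 29 (2.36%), and 0 to 26 on leaving out 1 array (0.921% to 13.7%). For week 15 against week 6 (38 called higher, 22.7%), it was 0 with the muscle score (0%), 10 with the GAPDH difference (6.42%) and 29 to 40 on leaving out 1 array (17.2% to 23.5%). For week 29 against week 15 (33 called lower, 22.4%), it was 14 with the 2 groups alone (18.1%), 0 with the muscle score (1.34%), 10 with the GAPDH difference (12.2%), 7 without replicate 3 of weeks 15 and 29 (11.1%), and 12 to 38 on leaving out 1 array (15.6% to 24.2%). Where the percentage over all genes is near 0, a count of 0 is at the background. The SD of the member score at week 29, 0.48, was 0.24 to 0.67 on leaving out 1 array. With the replicate block the other counts were 0, 38, 28 and 0. Same-numbered arrays deviated together in 8 of 18 pairs (r over 0.1, range -0.413 to 0.29). Pairs of different groups with unlike numbers ranged from -0.344 to 0.523. The labels do not say what the replicate numbers stand for, and whether they mark a batch was not tested. Week 29 against week 6 had 0 members called under every alternative run by limma. Members named by rule kept their direction against control in 483 of 483 alternative values at week 6 and 483 of 483 at week 29. Between weeks, the 4 members with the lowest adjusted p in each comparison did so in 88 of 88. Many of these settings cannot change a group difference, such as other eBayes options or leaving out an array of another group. Agreement in direction was therefore largely fixed in advance. With the muscle score as a covariate, the member median turned negative at week 15 against control (-0.24). The limits are 3 arrays per group, no detection calls, a control group of no stated week, and muscle and epithelial marker signals that differ between the same groups.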
